A study of Homo sapiens with 8 samples.

Results

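A group of 38 genes that cells switch on in answer to interferon, or use to cut and present peptides to T cells, was followed through the A204 expression arrays. The genes were taken by name, and each was read from the probe with the highest mean signal over the 8 arrays. Probes that matched 1 gene symbol were found here for 37 of them, out of 20046 genes with such a probe and 48107 probes in all. STAT2 was not analysed here.

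A204 is a human cell line from a malignant rhabdoid tumor (MRT). It has lost SMARCB1, which belongs to the SWI/SNF complex that moves nucleosomes, and every group carries this loss. Total RNA was hybridized to 1 Illumina array per sample. The groups were parental cells with no drug (2 arrays, untreated replicates 1 and 2), parental cells given 5 µM of a tyrosine kinase inhibitor (TKI; 3 arrays, 1 each for dasatinib, pazopanib and sunitinib), and the sublines with acquired resistance, DasR, PazR and SunR, each kept in 5 µM of its own drug (3 arrays, 1 each). The sublines had been raised from 500 nM through 2 and 3 µM to 5 µM over 6 weeks. Whether a subline was a clone, and how long the parental cells were in drug before harvest, is not given in the sources used here. The labels call the untreated cells drug-free while the study's text names a DMSO control, so an effect of vehicle cannot be told apart from one of drug. The labels do not say that the 2 untreated arrays came from separate cultures, and each drug has 1 array per arm, so p-values measure the spread between these arrays.

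Interferons are secreted when sensors such as RIG-I and MDA5 meet foreign RNA. Their receptors act through JAK kinases on transcription factors, among them STAT2 and IRF9, which bind the interferon-stimulated response element (ISRE) in the promoters of antiviral genes. Interferon gamma acts mainly through gamma-activated sites (GAS), as in IRF1. The same signals raise the immunoproteasome, the peptide transporter TAP and the class I molecules of the major histocompatibility complex (MHC), with which a tumor cell shows its peptides to cytotoxic T cells.

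The promoters of the members are shown because these elements are known from many such genes. RefSeq promoters (GRCh38.p14), from 250 bases before to 50 bases after a transcript start, were found for 33 of the 37 measured members. They were searched on both strands for an ISRE-like run, GAAA and GAAA with 2 bases of any kind between them, and for a GAS-like run, TTC and GAA with 3 bases between them. The ISRE-like run stood in 22 of the 33 members (66.7%), against 3.57% of 35116 promoters and 4.38% of 27305 genes. The GAS-like run stood in 10 of 33 (30.3%), against 7.66% of promoters and 9.38% of genes. A match describes the letters and was not tested as a site. The promoters of IFIT3 (the first of its 2 starts) and IFI6, the members that passed the test between resistant and treated cells, follow 5′ to 3′ on the strand of the gene. Capitals mark the ISRE-like run, which reads TTTC on the left where it lies on the opposite strand.

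IFIT3 (chr10:89327747-89328046, plus strand): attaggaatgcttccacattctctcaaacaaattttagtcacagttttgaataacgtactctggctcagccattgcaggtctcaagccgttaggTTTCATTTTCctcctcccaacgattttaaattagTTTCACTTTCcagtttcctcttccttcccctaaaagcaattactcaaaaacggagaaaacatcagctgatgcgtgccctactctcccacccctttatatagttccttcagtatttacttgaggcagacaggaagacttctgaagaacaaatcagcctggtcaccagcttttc
IFI6 (chr1:27672143-27672442, minus strand): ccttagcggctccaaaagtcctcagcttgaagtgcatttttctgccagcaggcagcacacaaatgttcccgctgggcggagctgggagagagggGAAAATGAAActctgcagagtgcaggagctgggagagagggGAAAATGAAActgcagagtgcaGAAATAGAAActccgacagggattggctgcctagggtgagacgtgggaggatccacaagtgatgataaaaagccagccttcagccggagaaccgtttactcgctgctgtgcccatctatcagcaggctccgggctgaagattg

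IFIT3 held 2 runs on the opposite strand, from -156 to -147 and from -122 to -113, counted from the transcript start with no base 0. IFI6 held 3 on its own strand, from -156 to -147, from -115 to -106 and from -93 to -84. Shorter windows around the runs, with 20 bases on each side, are given for 7 other members whose signals are described in every array. MX1 is shown at the first of its 3 starts and TAP1 at the first of 2. Runs of IFIH1, ISG15, TAP1 and B2M overlap each other, so that capitals run on past a single match, and the capitals of IFITM1 also cover a GAS-like run that overlaps its ISRE-like run.

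IFIH1 (chr2:162318676-162318863, minus strand): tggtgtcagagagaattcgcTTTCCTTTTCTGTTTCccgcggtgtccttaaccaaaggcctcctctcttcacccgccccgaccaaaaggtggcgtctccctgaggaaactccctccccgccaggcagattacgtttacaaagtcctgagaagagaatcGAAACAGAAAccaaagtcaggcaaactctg
ISG15 (chr1:1013364-1013419, plus strand): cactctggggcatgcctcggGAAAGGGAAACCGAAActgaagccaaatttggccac
MX1 (chr21:41420549-41420598, plus strand): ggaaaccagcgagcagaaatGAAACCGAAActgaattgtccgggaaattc
TAP1 (chr6:32853803-32853858, minus strand): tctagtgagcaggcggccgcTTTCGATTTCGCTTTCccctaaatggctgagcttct
B2M (chr15:44711353-44711408, plus strand): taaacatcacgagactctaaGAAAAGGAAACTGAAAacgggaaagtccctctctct
IFITM1 (chr11:313980-314063, plus strand): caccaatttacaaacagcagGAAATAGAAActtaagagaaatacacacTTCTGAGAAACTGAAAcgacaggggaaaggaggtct
IFITM3 (chr11:320866-320932, minus strand): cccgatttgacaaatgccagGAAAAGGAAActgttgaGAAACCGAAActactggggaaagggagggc

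IRF1 and IRF9, which take part in binding the ISRE, held a GAS-like run and no ISRE-like one, and their capitals mark it.

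IRF1 (chr5:132490869-132490917, minus strand): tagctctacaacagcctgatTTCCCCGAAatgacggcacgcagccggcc
IRF9 (chr14:24161182-24161230, plus strand): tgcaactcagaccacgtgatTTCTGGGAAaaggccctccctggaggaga

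Neither run was found in the windows of HLA-B and HLA-C. The members lie in clusters on several chromosomes. There are 4 IFIT genes on chromosome 10 and 3 OAS genes on chromosome 12. On chromosome 6 lie HLA-B, HLA-C, PSMB8, PSMB9, TAP1 and TAP2, where the starts of TAP1 and PSMB9 were 488 bases apart.

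Most members were well above the signals of genes with no known use in such a cell. Signals are log2 values, quantile normalized by the authors, and a step of 1 is a change of 2-fold. Of 10 tissue-restricted genes (liver, pancreas, muscle, germ cell, red cell and lymphocyte genes), ALB had the highest mean, 7.37, and 30 of the 37 members exceeded it. The 7 at or below it were MX2, IFI27, IFI44, IFI44L, IRF7, BST2 and HERC5, with means from 6.50 (MX2) to 7.22 (BST2). B2M, the invariant light chain of MHC class I, had the highest mean signal of the group (13.81), followed by the ISG15-conjugating enzyme UBE2L6 (12.33), IFI6 (11.77), ISG15 (11.38) and TAP1 (11.02). Probes differ in brightness, so these signals do not rank transcripts. The 10 interferon ligand genes had means from 6.39 to 6.69, all below ALB.

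**Figure D1:**
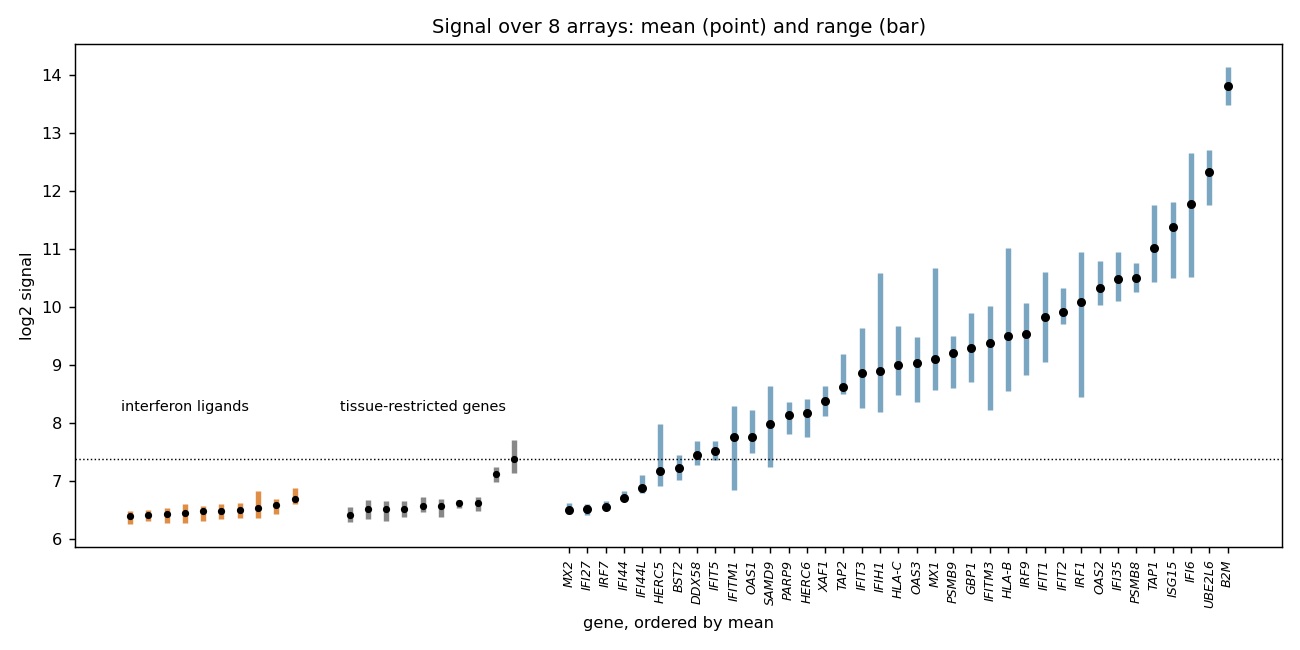
Mean log2 signal over the 8 arrays (points) and range from the lowest to the highest array (bars) of the 37 measured members (blue), 10 interferon ligand genes (orange) and 10 tissue-restricted genes (gray), with genes along the x axis. The dotted line is at 7.37, the mean of ALB, and 30 members have their mean above it.

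Markers of other cells were checked in the same way. SMARCB1 had a mean of 6.82 and vimentin, abundant in rhabdoid cells, 14.51. The keratins KRT8 and KRT18, listed with them for the cell line, had means of 6.63 and 6.61, below ALB. The log2 of the summed linear signals of 11 leukocyte markers was 11.59 to 11.77 in untreated cells, 11.57 to 11.70 in treated parental cells and 11.63 to 12.24 in the sublines. CD68, a lysosomal protein that many cell types also make, was the brightest of them (mean 11.18). CORO1A (mean 7.52) was also above ALB, while PTPRC and CD3E had means of 6.56 and 6.51. CD3E and CD79A stand among both the leukocyte markers and the tissue-restricted genes. The sums of 6 endothelial markers were between 9.03 and 9.27, and those of 7 epithelial markers between 9.30 and 9.39. None of these markers passed the test in any comparison with limma, where the lowest adjusted p was 0.146.

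The first comparison set the 3 resistant sublines against the 3 parental arrays in the same drugs, at the same dose, and asked what differed between cells that grow in a TKI and parental cells exposed to it. In the sublines, IFIT3, which holds back viral RNA together with its IFIT partners, was 2.04-fold higher and IFI6, a membrane protein induced by interferon alpha, was 2.49-fold higher. These 2 of 37 members (5.41%) passed an adjusted p under 0.05 in limma, both higher, against 7.33% of all genes, so the group was not called more often than genes at large. In RNA from whole cultures, fewer cells with a transcript and less of it per cell cannot be told apart. At an unadjusted p under 0.05 there were 10 members (27.0%) against 24.9% of genes. The arrays of the 2 arms did not overlap for 6 members that were higher in the sublines (IFIT3, IFI6, IFIH1, ISG15, TAP1 and UBE2L6; 16.2%, against 14.8% of genes) and for 1 that was lower (IFITM3; 2.7%, against 14.8%). The median difference of the members was 0.16 on the log2 scale, against 0.00 for all genes, and 27 of 37 (73.0%) were above 0, against 50.6%. Among the 8431 genes with a mean above that of ALB, 13% were called and the median difference was 0.03, while the 30 members above that level had 2 calls and a median of 0.20, with 23 of them (76.7%) above 0, against 52.7%. Genes of one pathway are not independent, so this lean is a description of these arrays and no test was run on it.

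**Figure D2:**
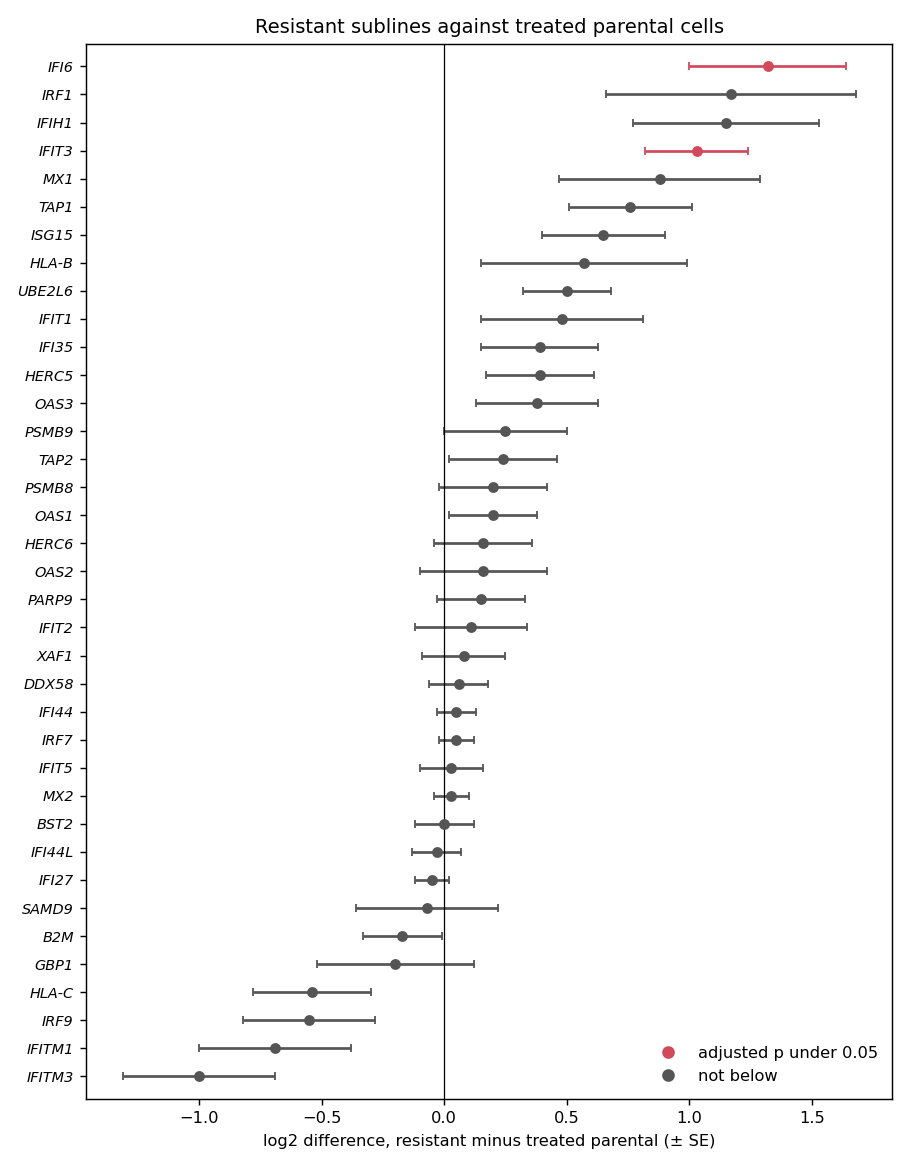
Log2 difference (x axis) of each of the 37 members between the mean of the 3 resistant sublines and the mean of the 3 treated parental arrays, with the standard error from limma as bars. IFI6 and IFIT3 (red) passed an adjusted p under 0.05, and the differences run from -1.0 (IFITM3) to 1.32 (IFI6).

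**Figure D3:**
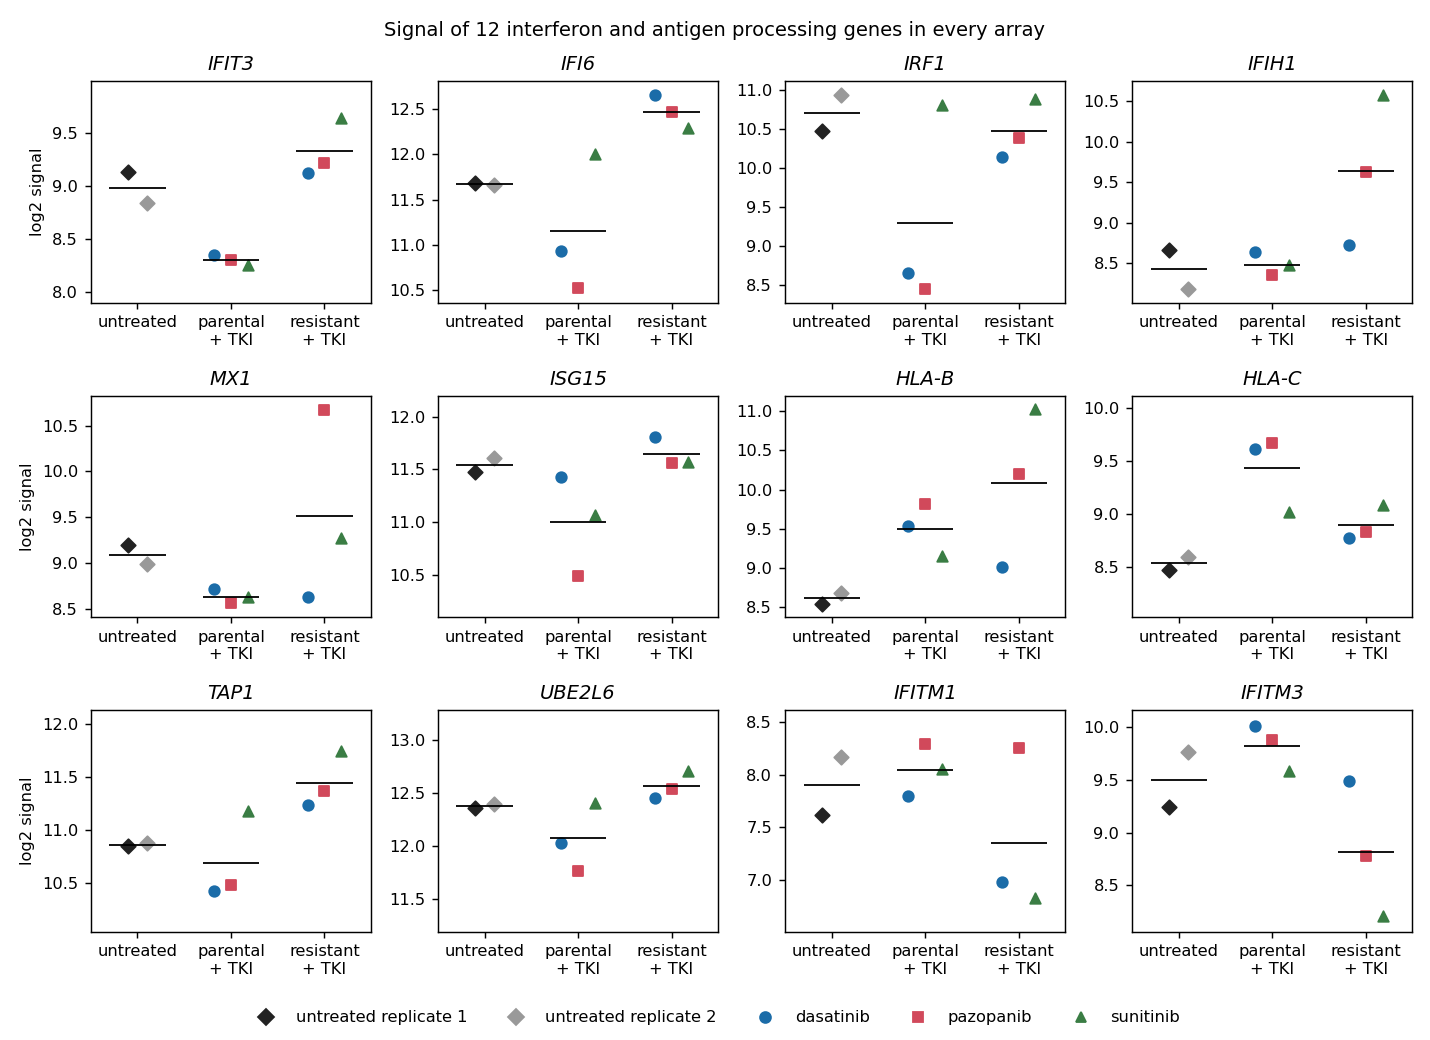
Log2 signal (y axis, scaled to each gene) of 12 members in every array, by group along the x axis, with the drug as color and shape and a horizontal line at the group mean. IFIT3 shows no overlap between treated parental cells and sublines, while MX1 and IFIH1 spread widely among the sublines.

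The RNA sensors came first in the pathway. IFIH1 encodes MDA5, which binds long double-stranded RNA. Its signal was 8.66 and 8.18 in untreated cells, 8.63, 8.35 and 8.47 in parental cells in dasatinib, pazopanib and sunitinib, and 8.72, 9.62 and 10.58 in DasR, PazR and SunR. DasR was 0.09 above the parental dasatinib array, while PazR and SunR were the 2 highest arrays. The difference between sublines and treated cells was 1.15 ± 0.38 (SE, n = 3 arrays in each arm, as for all differences between these arms), with an adjusted p of 0.103 in limma. Without DasR it was 1.61 (adjusted p 0.0119) and without SunR 0.68 (adjusted p 0.195). With a term for 2 array sets (the sublines with untreated replicate 1, the treated parental cells with untreated replicate 2) it was also 0.68 (adjusted p 0.973). These sets were chosen from the values of these arrays, and no label names them. Here and below, the term is set by the gap between the 2 untreated arrays, 1 against 1. What the sets reflect was not tested. DDX58, the older symbol of RIGI, encodes RIG-I, which binds the ends of short viral RNA. It was between 7.27 and 7.68 in all arrays, with a difference of 0.06 ± 0.12.

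Of the transcription factors, IRF1, which drives class I and immunoproteasome genes, had the widest spread among treated parental cells. It read 10.48 and 10.94 in untreated cells, 8.65, 8.45 and 10.81 in parental cells in dasatinib, pazopanib and sunitinib, and 10.14, 10.39 and 10.89 in DasR, PazR and SunR. The parental arrays in dasatinib and pazopanib were lower than all 6 others, DasR and PazR exceeding them by 1.49 and 1.94, and the parental array in sunitinib lay with the untreated cells and the sublines. The mean difference between sublines and treated cells, 1.17 ± 0.51, had an adjusted p of 0.226 in limma. Without the parental sunitinib array it was 1.92 (adjusted p 0.00293), and without the parental pazopanib array 0.74 (adjusted p 0.544).

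IRF9, the DNA-binding partner of STAT2, read 9.14 and 9.40 in untreated cells, 9.88, 10.07 and 9.72 in treated parental cells, and 8.82, 9.75 and 9.44 in DasR, PazR and SunR. DasR was the lowest array and PazR overlapped the treated cells, with a mean difference of -0.55 ± 0.27 (limma adjusted p 0.273). It was -0.29 without DasR (adjusted p 0.601) and also -0.29 with the array sets as a term (adjusted p 0.978). IRF7, which amplifies the interferon genes, stayed between 6.49 and 6.65, at the level of the tissue-restricted genes.

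Among the IFIT proteins, which bind viral RNA that lacks the host cap marks, IFIT3 read 9.13 and 8.84 in untreated cells, 8.35, 8.30 and 8.25 in parental cells in dasatinib, pazopanib and sunitinib, and 9.12, 9.22 and 9.64 in DasR, PazR and SunR. The treated parental arrays were the 3 lowest and close together, and the untreated arrays lay within or below the range of the sublines. The difference was 1.03 ± 0.21 with an adjusted p of 0.015 in limma. The call was lost without the parental dasatinib array (1.06, adjusted p 0.0714) or the parental pazopanib array (1.03, adjusted p 0.0805). The term for the array sets gave 0.74, with an adjusted p of 0.973, and in that fit 0 of the 20046 genes passed.

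IFIT1, the cap sensor of the family, read 10 and 10.04 in untreated cells, 9.93, 9.56 and 9.05 in treated parental cells, and 10.60, 10.01 and 9.38 in DasR, PazR and SunR. Each subline was above the parental array in its own drug, by 0.66, 0.44 and 0.32, but the arms overlapped and the mean difference of 0.48 ± 0.33 had an adjusted p of 0.464 in limma. IFIT2 (0.11) and IFIT5 (0.03) differed by less than their standard errors, so the 4 IFIT genes that neighbor each other on chromosome 10 had 1 call among them.

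The MX proteins are GTPases that trap incoming viral particles. MX1 read 9.20 and 8.99 in untreated cells, 8.72, 8.57 and 8.64 in treated parental cells, and 8.63, 10.67 and 9.28 in DasR, PazR and SunR. PazR was the highest array, and DasR lay among the parental cells in drug. The mean difference of 0.88 ± 0.41 had an adjusted p of 0.252 in limma, and it was 0.31 without PazR (adjusted p 0.614) and 1.33 without DasR (adjusted p 0.0627). MX2 was between 6.42 and 6.61 in all arrays. GBP1, a large GTPase induced mainly by interferon gamma, read 9.49 and 9.78 in untreated cells, 9.90, 9.13 and 8.81 in treated parental cells, and 8.93, 9.60 and 8.70 in DasR, PazR and SunR. Its arms overlapped, and the difference of -0.20 ± 0.32 became 0.10 without the parental dasatinib array and 0.09 with the array sets as a term. Leaving out any other array moved it within -0.47 (without PazR) to -0.02 (without SunR).

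The OAS enzymes make the messenger that turns on RNase L. The differences of OAS1 (0.20 ± 0.18), OAS2 (0.16 ± 0.26) and OAS3 (0.38 ± 0.25) were all above 0, with none called. OAS2 was the brightest of them, between 10.03 (DasR) and 10.79 (SunR).

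ISG15 is a small protein that is joined to others like ubiquitin, by UBE2L6 and HERC5. ISG15 read 11.48 and 11.61 in untreated cells, 11.43, 10.49 and 11.07 in treated parental cells, and 11.81, 11.56 and 11.57 in DasR, PazR and SunR. UBE2L6 read 12.36 and 12.40 in untreated cells, 12.03, 11.76 and 12.41 in treated parental cells, and 12.45, 12.54 and 12.71 in the sublines in the same order. For both genes the parental pazopanib array was the lowest and the untreated pair lay at or just under the sublines. The differences were 0.65 ± 0.25 for ISG15 and 0.50 ± 0.18 for UBE2L6, with adjusted p of 0.16 and 0.144 in limma. Without the parental sunitinib array, UBE2L6 was among 5 of 37 members called, against 10.6% of all genes in that fit.

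HERC5, the ligase, read 7.04 and 6.90 in untreated cells, 6.93, 6.98 and 7.22 in treated parental cells, and 6.91, 7.40 and 7.98 in DasR, PazR and SunR. PazR and SunR were the only arrays above 7.37, and the difference was 0.39 ± 0.22. HERC6, its relative, differed by 0.16 ± 0.20.

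IFI6 read 11.68 and 11.66 in untreated cells, 10.93, 10.52 and 12 in parental cells in dasatinib, pazopanib and sunitinib, and 12.65, 12.46 and 12.29 in DasR, PazR and SunR. The sublines were the 3 highest arrays, while among treated parental cells the sunitinib array was above the untreated pair and the other drugs below it. The difference was 1.32 ± 0.32 with an adjusted p of 0.0332 in limma. It lost the call without the parental dasatinib array (1.21, adjusted p 0.127), the parental pazopanib array (1.00, 0.127), DasR (1.23, 0.0914) or PazR (1.32, 0.103), and with the array sets as a term (1.29, 0.973). A further IFI6 probe, with a mean of 10.17, gave -0.25 ± 0.26, and the mean of both probes gave 0.53 with an adjusted p of 0.2. IFI35 was also well above ALB (10.48) and differed by 0.39 ± 0.24. IFI27, IFI44 and IFI44L, which rise steeply in many cells given interferon, had means of 6.51, 6.70 and 6.88 and differences from -0.05 to 0.05.

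The IFITM proteins sit in membranes and hinder viral fusion, and the members IFITM1 and IFITM3 had mean differences on the other side. IFITM2, listed with the other interferon-stimulated genes, differed by -0.39 ± 0.32 (limma adjusted p 0.553). Against the parental array in its own drug it was 0.19, -0.05 and -1.31 in DasR, PazR and SunR. IFITM3 read 9.24 and 9.76 in untreated cells, 10.01, 9.88 and 9.58 in treated parental cells, and 9.49, 8.78 and 8.21 in DasR, PazR and SunR. All sublines were below all treated parental arrays, with SunR lowest. The difference was -1.0 ± 0.31 with an adjusted p of 0.083 in limma. It passed without DasR (-1.33, adjusted p 0.0174) and with the drug as a block (adjusted p 0.0266), but was -0.69 without SunR and -0.48 with the array sets as a term (adjusted p 0.974). IFITM1 read 7.62 and 8.17 in untreated cells, 7.80, 8.29 and 8.05 in treated parental cells, and 6.98, 8.25 and 6.83 in DasR, PazR and SunR. DasR and SunR were the lowest arrays and PazR lay among the highest, so that the difference of -0.69 ± 0.31 (limma adjusted p 0.233) became -1.14 without PazR (adjusted p 0.0098), -0.43 without SunR (adjusted p 0.507) and -0.14 with the array sets as a term (adjusted p 0.992).

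The remaining restriction factors differed little on average. BST2, or tetherin, which holds budding virions at the membrane, read 7.42 and 7.44 in untreated cells, 7.23, 7.19 and 7.01 in treated parental cells, and 7.01, 7.32 and 7.09 in DasR, PazR and SunR. The untreated pair was the highest of the 8 arrays. SAMD9, an antiviral factor that stops translation, read 7.66 and 7.70 in untreated cells, 8.04, 8.19 and 8.09 in treated parental cells, and 7.24, 8.23 and 8.63 in DasR, PazR and SunR. DasR was its lowest array and SunR its highest, with a mean difference of -0.07 ± 0.29. XAF1 (0.08) and PARP9 (0.15) were below their standard errors. A further XAF1 probe, with a mean of 7.50, gave -0.38 ± 0.14 (limma adjusted p 0.133), with every subline below every treated parental array. Its untreated replicates 1 and 2 read 7.11 and 7.98.

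In antigen processing, TAP1, a chain of the pump that carries peptides into the endoplasmic reticulum, read 10.85 and 10.88 in untreated cells, 10.42, 10.48 and 11.18 in parental cells in dasatinib, pazopanib and sunitinib, and 11.24, 11.37 and 11.75 in DasR, PazR and SunR. Every subline was above every parental array, though DasR only just passed the parental sunitinib array. The difference was 0.76 ± 0.25 with an adjusted p of 0.108 in limma. TAP1 was among the members called without the parental sunitinib array and with the drug as a block. TAP2, its partner chain, differed by 0.24 ± 0.22, with SunR the highest array (9.18). The immunoproteasome subunits PSMB8 (0.20 ± 0.22) and PSMB9 (0.25 ± 0.25), which change how proteins are cut for presentation, were not called. The 4 probes of PSMB8 gave differences from 0.20 to 0.73, with 0 called.

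The class I chains themselves did not share a direction. HLA-C read 8.47 and 8.59 in untreated cells, 9.61, 9.67 and 9.02 in parental cells in dasatinib, pazopanib and sunitinib, and 8.77, 8.83 and 9.08 in DasR, PazR and SunR. The treated parental arrays were above the untreated pair, DasR and PazR lay between them, and SunR lay beside the parental sunitinib array. The difference was -0.54 ± 0.24 with an adjusted p of 0.223 in limma, and the mean of the 2 HLA-C probes gave -0.64 with an adjusted p of 0.0299. HLA-B read 8.55 and 8.69 in untreated cells, 9.53, 9.82 and 9.16 in treated parental cells, and 9.01, 10.20 and 11.02 in DasR, PazR and SunR. Every array in drug was above the untreated pair, and SunR was the highest. The difference of 0.57 ± 0.42 had an adjusted p of 0.495. B2M read 13.86 and 13.50 in untreated cells, 13.98, 14.14 and 13.68 in treated parental cells, and 13.48, 13.68 and 14.14 in the sublines, and its arms overlapped. Class I genes are near-identical copies in places and vary between cell lines, so a probe for one may read another or miss an allele, and the values of HLA-B and HLA-C are uncertain in this respect.

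A further look at every probe bore on these calls. The 37 members had 63 probes, with 1 probe for 20 members and several for 17. There were 7 called probes in 5 genes: all 3 of IFIT3 (1.03, 1.82 and 1.54), 1 of the 2 of IFI6, and the dimmer ones of OAS2 (0.51), TAP2 (0.50) and HLA-C (-0.73). The dimmer IFIT3 probe with the larger difference read 8.92 in untreated replicate 1 and 7.19 in replicate 2, against 7.13, 7.43 and 7.04 in treated parental cells and 8.92, 8.88 and 9.26 in DasR, PazR and SunR. Replicate 1 thus lay with the sublines and replicate 2 with the treated cells. The dimmer HLA-C probe did the same in the other direction, at 6.16 and 7.27 in the untreated pair, 6.99, 6.96 and 7.12 in treated parental cells, and 6.23, 6.48 and 6.18 in the sublines. Counted over the called probes, 5 of the 7 from the members (71.4%) had replicate 1 nearer the sublines and replicate 2 nearer the treated cells, and 0 had the reverse. Over all 2041 called probes with 1 gene symbol these shares were 46.4% and 2.35%. What parted the untreated pair was not tested.

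**Figure D4:**
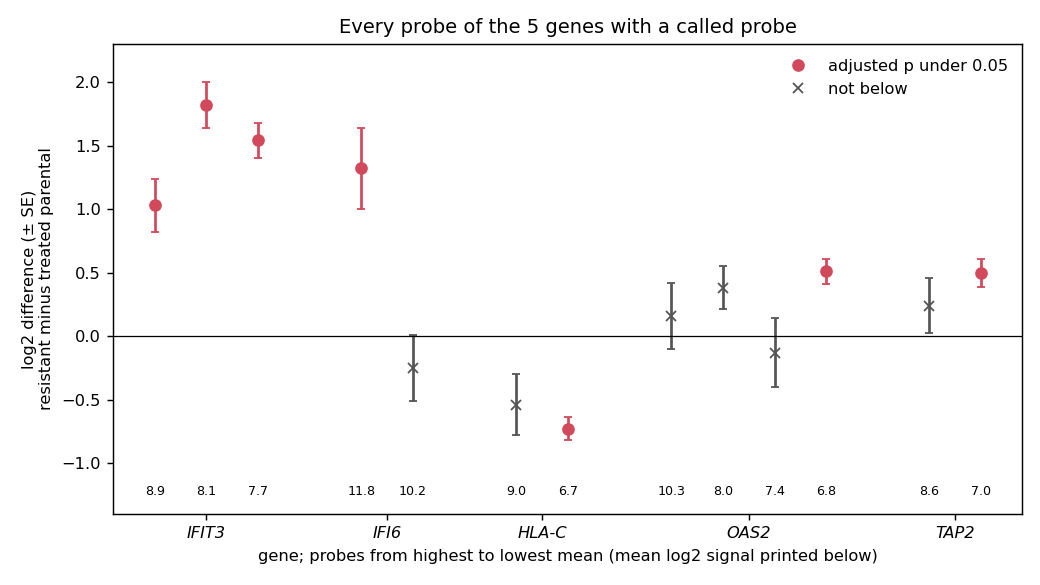
Log2 difference between resistant sublines and treated parental cells (y axis, ± SE from limma) for every probe of the 5 members with a called probe, with probes ordered along the x axis from highest to lowest mean signal, which is printed beneath. All 3 IFIT3 probes were called (red), while the calls in OAS2, TAP2 and HLA-C came from their dimmest probe.

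Set against their own drug, the sublines differed from each other in which members stood apart. With 1 array against 1 there is no test, and a member was counted when it differed by over 1 on the log2 scale. For dasatinib there were 3 (IFI6 and IRF1 higher, IRF9 lower; 8.11%, against 6.65% of all genes). For pazopanib there were 6 (IFI6, IFIH1, IRF1, ISG15 and MX1 higher, IFITM3 lower; 16.2%, against 5.09%). For sunitinib there were 5 (HLA-B, IFIH1 and IFIT3 higher, IFITM1 and IFITM3 lower; 13.5%, against 4.5%). These shares are not matched for brightness: 8431 of the 20046 genes had a mean above ALB, against 30 of 37 members. Between the means of sublines and treated cells, the median absolute difference was 0.13 over all genes. It was 0.35 for genes above ALB and 0.38 for members above it. A matched share was not computed for any single-array count here or below. The median differences of the members were -0.06, 0.15 and 0.29 for dasatinib, pazopanib and sunitinib, against 0.01, 0.01 and -0.01 for all genes.

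The size of a difference varied with the drug. IFI6 and IRF1 were higher in DasR by 1.72 and 1.49 and in PazR by 1.95 and 1.94, but in SunR by 0.29 and 0.08, where the parental sunitinib array itself was high. IFIH1 went the other way, with 0.09 in DasR, 1.26 in PazR and 2.11 in SunR, where the sublines and not the parental arrays differed. MX1 was -0.09, 2.10 and 0.64 in that order, and HLA-B -0.52, 0.38 and 1.86. IFIT3 (0.77, 0.92 and 1.40), TAP1 (0.82, 0.89 and 0.58), ISG15 (0.38, 1.07 and 0.49) and UBE2L6 (0.42, 0.79 and 0.30) were above 0 for each drug, and IFITM3 (-0.52, -1.11 and -1.37) was below 0 for each. The dimmer IFI6 probe gave 0.16, -0.26 and -0.65 for dasatinib, pazopanib and sunitinib. IFI6 thus passed 1 in its brighter probe only.

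**Figure D5:**
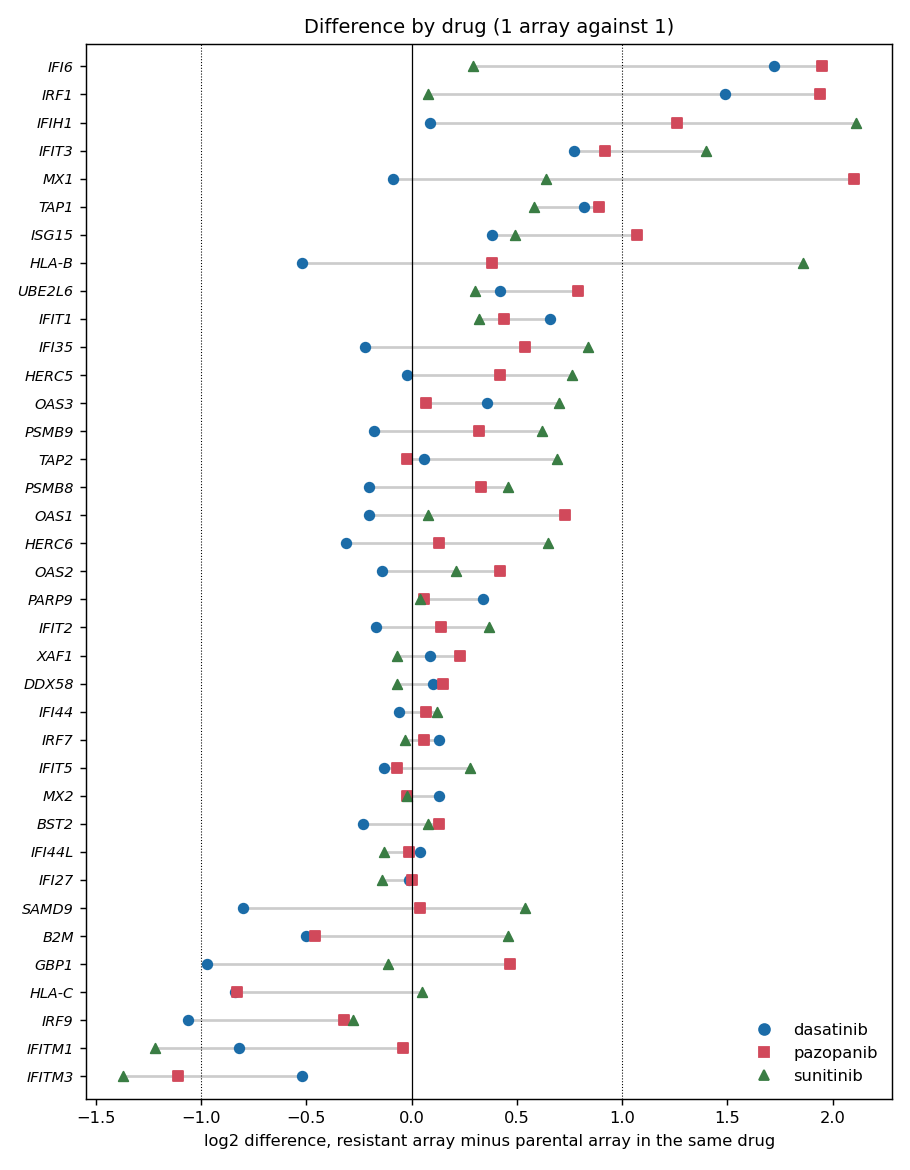
Log2 difference (x axis) between a resistant subline and the parental array in the same drug for each of the 37 members, 1 array against 1, with the drug as color and shape, gray bars joining the 3 drugs and dotted lines at -1 and 1. IFIH1, MX1 and HLA-B span about 2 units between drugs, while the values of IFIT3, from 0.77 to 1.40, lie on one side of 0.

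The comparison of the sublines with untreated parental cells asked whether the signal in resistant cells had left the level of cells without drug. No member was called by limma (0 of 37, against 0.479% of genes) and 4 (10.8%) had an unadjusted p under 0.05, against 8.62% of genes. The lowest adjusted p was 0.447, for HLA-B, which was higher by 1.46 ± 0.45, followed in size by IFIH1 (1.21 ± 0.41, adjusted p 0.531) and IFI6 (0.80 ± 0.34, adjusted p 0.664). Without DasR, HLA-B (1.99, adjusted p 0.016) and IFIH1 (1.67, adjusted p 0.0375) were called, and without SunR they were 0.98 and 0.74, with neither called. The lowest differences were those of IFITM3 (-0.67 ± 0.34), GBP1 (-0.56 ± 0.35) and IFITM1 (-0.54 ± 0.34). Without SunR these were -0.37 for both IFITM3 and GBP1 and -0.29 for IFITM1, and without untreated replicate 2 IFITM3 was -0.41 and IFITM1 -0.27. The median was 0.11, and 29 of 37 members (78.4%) were above 0, against 48.8% of genes. Array by array, counting members that differed from both untreated arrays by over 1 in the same direction, DasR had 0 (against 1.61% of genes), PazR 2 (HLA-B and MX1, 5.41%, against 0.993%) and SunR 3 (HLA-B and IFIH1 higher, IFITM3 lower, 8.11%, against 2.68%).

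Treated parental cells were compared with the same untreated arrays, so the comparisons share their controls. Again no member was called by limma (0 of 37, against 0.00499% of genes), with 3 (8.11%) at an unadjusted p under 0.05, against 15.4% of genes. The lowest adjusted p was 0.181, for HLA-C, higher by 0.91 ± 0.25, and HLA-B was higher by 0.88 ± 0.45 (adjusted p 0.451). IRF1 had the lowest difference, -1.41 ± 0.55 (adjusted p 0.319), then IFIT3 (-0.68 ± 0.23, adjusted p 0.252) and ISG15 (-0.54 ± 0.27). Without the parental sunitinib array, IRF1 (-2.16, adjusted p 0.00952) and HLA-C (1.11, adjusted p 0.0426) were called, and without the parental pazopanib array ISG15 was -0.29. The median of the members was -0.04, with 17 of 37 (45.9%) above 0, against 49.7% of genes. The parental dasatinib array had 2 members past both untreated arrays by over 1 (HLA-C higher and IRF1 lower, 5.41%, against 1.43% of genes). The parental pazopanib array had 4 (HLA-B and HLA-C higher, IFI6 and IRF1 lower, 10.8%, against 2.68%), and the parental sunitinib array had 0 (against 1.06%). In the dimmer IFI6 probe, the parental pazopanib array was instead 0.77 above the untreated mean. Between the 2 untreated arrays themselves no member differed by over 1 (against 0.988% of genes), and the largest gaps were those of IFITM1 (0.55), IFITM3 (0.52), IFIH1 (-0.48), IRF1 (0.46) and B2M (-0.36), replicate 2 minus replicate 1.

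Other genes of the pathway, listed by role, were read in the same fits. Of 10 ligands, 9 receptor and JAK genes, 8 other transcription factors, 11 sensing adaptors and kinases, 7 negative regulators and 3 constitutive proteasome subunits, none was called in any comparison by limma. Of all genes, 7.33% were called between sublines and treated parental cells (13% of those above ALB), and 0.479% between sublines and untreated cells. The counts that follow stand beside these shares. Among 34 other interferon-stimulated genes, 2 were higher in sublines than in treated parental cells and 0 lower. They were PARP10 (1.30 ± 0.26, adjusted p 0.0144), an ADP-ribosyltransferase, and PLSCR1 (0.56 ± 0.11, adjusted p 0.0143), a phospholipid scramblase. The mean signal of PLSCR1, 7.24, was below ALB. Its untreated replicate 1 (7.46) lay with the sublines (7.51, 7.63 and 7.39 in DasR, PazR and SunR). Replicate 2 (7.03) lay with the treated parental cells (7.05, 6.91 and 6.90). Among 14 other antigen processing genes, 2 were higher, the immunoproteasome subunit PSMB10 (0.98 ± 0.21, adjusted p 0.0206) and the proteasome activator subunit PSME2 (0.73 ± 0.15, adjusted p 0.0195), and 2 were lower, the chaperone CALR (-1.35 ± 0.30, adjusted p 0.0232) and the nonclassical class I chain HLA-E (-1.19 ± 0.24, adjusted p 0.0171). PSMB10 read 12.32 and 12.07 in untreated cells, 11.65, 11.30 and 11.41 in treated parental cells, and 12.01, 12.56 and 12.72 in DasR, PazR and SunR, with the treated parental arrays lowest, as for IFIT3. HLA-E read 10.83 and 10.78 in untreated cells, 11.54, 11.62 and 11.44 in treated parental cells, and 9.92, 10.33 and 10.79 in the sublines, with the treated parental arrays the 3 highest. Of 11 MHC class II genes, 1 was called: HLA-DPA1 was higher in sublines than in treated cells (0.70 ± 0.14, adjusted p 0.0154) and than in untreated cells (0.91, adjusted p 0.0241), at a mean signal of 7.15 that is below ALB.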

How the data were processed

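The authors preprocessed the Illumina HumanHT-12 signals with beadarray, put them on the log2 scale and normalized quantiles between arrays. How background was treated is not given in the sources used here. The deposited log2 signals, 48107 probes in each of 8 arrays, were used as they are. Every array had a median of 6.67, and precision is limited by how few arrays there were. Exactly 1 gene symbol was matched for 30113 probes (updated to RefSeq, GRCh38.p14), several for 8 and none for 17986.

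Probes were tested with limma 3.58.1 (R 4.3.3; eBayes allowed a trend with intensity), adjusted by Benjamini-Hochberg over all probes, at a threshold of 0.05. Sublines and treated parental cells were compared over 6 arrays, and comparisons with untreated cells came from 1 fit of 8 arrays in 3 groups. The script was tested on simulated data.

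The members, gene lists, array sets and tests were chosen with earlier results of these data known. Given in every array are members called in any comparison, the 5 highest and 5 lowest of each, and the 5 that differed most by drug and between untreated arrays. UBE2L6, PSMB10, HLA-E, PLSCR1 and the further probes were added after their values were seen.

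The arrays could be paired by drug, but the main test between sublines and treated parental cells left this pairing out. Deviations from group means correlated across probes at 0.126 (dasatinib), 0.184 (pazopanib) and 0.199 (sunitinib) between arrays of the same drug, and at most at 0.051, 0.00709 and -0.0871 between different drugs. Such deviations cancel out within a group, so a positive correlation for the same drug pulls down those between different drugs. Alternatives changed the eBayes settings, probe set, centering, offset, probe summary, arrays left out, array sets, drug block or test.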

Additional observations from a re-analysis of the deposited data

Results flagged for a closer look

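HLA-B and SAMD9 moved in opposite directions in DasR and SunR, each by over 0.5 against the parental array in the same drug. HLA-B was 0.52 lower in DasR and 1.86 higher in SunR, a gap of 2.38 on the log2 scale. SAMD9 was 0.80 lower in DasR and 0.54 higher in SunR, a gap of 1.34. Each value rests on 1 array against 1, so the difference between the drugs was not tested.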

How the results depend on the processing

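With 3 arrays per arm and 2 untreated arrays, the calls rested on few arrays. Of the members, 2 were called between sublines and treated parental cells (7.33% of all genes). There was 1 (IFIT3) with eBayes without a trend (8.32% of genes), 0 with the array sets as a term (and 0 of the 20046 genes), 4 (IFIT3, IFI6 and TAP1 higher, IFITM3 lower) with the drug as a block (9.9%), 0 by the methods' t-test after Benjamini-Hochberg (0.0499%; unadjusted, 2 members and 20.4% of genes), and 0 among the 50 highest and 50 lowest probes by Signal2Noise (0.165%). Leaving out 1 array gave from 0, without the parental dasatinib (2.64%) or pazopanib array (2.1%), to 5 calls, without the parental sunitinib array (IFIT3, IFI6, IRF1, TAP1 and UBE2L6; 10.6%). The median difference of the members then ranged from 0.09 to 0.25, the latter without DasR. Against untreated cells, the sublines had 0 to 2 calls (2 without DasR, 0.988% of genes) and medians from 0.09 to 0.23, and treated parental cells 0 to 2 calls (2 without the parental sunitinib array, 1.76% of genes). IFITM3 was also called with robust eBayes (adjusted p 0.0499). The sign changed for GBP1 (0.09 with the array sets, and -0.47 to 0.10 between sublines and treated cells with 1 array left out) and, between treated and untreated cells, for IFI6 with the mean of its probes (0.04). With a threshold of 0.5 for single arrays, 13, 12 and 14 members differed between subline and parental array in dasatinib, pazopanib and sunitinib, against 21.4%, 18.6% and 16.1% of all genes. Past both untreated arrays there were 4, 8 and 4 in the parental arrays (8.8%, 11.6% and 6.85% of genes) and 4, 5 and 13 in DasR, PazR and SunR (4.76%, 4.08% and 9.6%), and 2 differed between the untreated arrays (6.77%). For single genes, 426 of the values under alternatives kept their direction and side of the threshold, 10 lost a call, 11 gained one and 3 changed sign. Only IFIT3 and IFI6, between sublines and treated parental cells, had a call to lose. They were called under 12 and 8 of 15 alternatives, so most of the 426 values never carried a call. The labels give the groups no shared replicate numbers, so the block by drug was the only paired analysis.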
